A study of Homo sapiens with 6 samples.

Results

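The adaptors GAB1, GAB2, GRB2, GRB7, GRB10, GRB14, SHC1, SOS1 and SOS2 were followed in T47D cells, an established line of human luminal breast cancer, after treatment with GDC-0941, an inhibitor of all class I PI3 kinases. Every probe set that names only 1 of these 9 genes was taken, after old symbols were updated through the Entrez identifier. That gave 30 of the 54613 probe sets on the array that are not manufacturer's controls, and 9 of the 19775 genes. No measured value entered the choice of probe sets, but the 9 genes were chosen with earlier results of these data known. The 3 treated samples received GDC-0941 for 6 hours at a concentration that the labels write as 1 mM, a unit that may have lost a micro sign. The 3 control samples have "none" as their agent, and the labels do not say whether they received the solvent. All 6 samples come from the same line in the same medium with serum, and no label says that replicates came from separate dishes. The p-values therefore reflect only how far these 6 samples scatter, part of which may be technical.

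Receptor adaptors carry no receptor or kinase activity of their own. GRB2 joins phosphorylated receptors, or the adaptor SHC1 bound to them, to SOS1 and SOS2, which load RAS with GTP. GAB1 and GAB2 are large docking proteins that ride on GRB2, become phosphorylated near the receptor and then recruit the regulatory subunit of PI3 kinase and the phosphatase SHP2. Their PH domain binds the lipid that PI3 kinase makes. GRB7, GRB10 and GRB14 form a separate family with a PH domain and an SH2 domain. GRB10 and GRB14 are known as inhibitors of the insulin receptor, and GRB10 is a substrate of the kinase mTOR.

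Values are the deposited log2 RMA signals, on which a difference of 1 is a doubling against the array's other transcripts. They carry no detection call, and a level also depends on how well its probes bind. Brightness and percentiles below therefore only place a probe set on the array and order no transcripts by abundance. The array medians lay between 7.34 and 7.38. Arrays correlated at 0.997 to 0.998 within groups and at 0.992 to 0.994 between groups, across probe sets. With 1 probe set per gene, 12.1% of all genes rose and 15.6% fell at an adjusted p under 0.05 in limma. Of 8 luminal markers, 3 rose by that measure (PGR, FOXA1 and CDH1) and 2 fell (KRT8 and KRT18). Of 6 markers of basal, mesenchymal, leukocyte and endothelial cells, none passed in limma (2 had an unadjusted p under 0.05). The summed linear signal of those 6 was 1299 to 1506 on treated arrays and 1415 to 1515 on controls. These signals do not show whether a marker is present, so the labelled cell type was not tested. In RNA from a whole culture, a change in the share of cells in a given state and a change in RNA per cell cannot be told apart.

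A probe set was called at an adjusted p under 0.05 in limma's moderated test (Benjamini-Hochberg over all 54613 probe sets). GDC-0941 raised 8 of the 30 adaptor probe sets and lowered none. A further 6 had an unadjusted p under 0.05 in limma without being called, 4 of them with a negative difference. Over the whole array 8.88% of probe sets were called higher and 9.89% lower, 18.8% in all. The called ones were 4 of the 7 for GAB1, 1 of the 6 for SOS2 and the single probe sets of GAB2, GRB7 and GRB14. No probe set of GRB2, GRB10, SHC1 or SOS1 was called. The 3 treated arrays all lay above the 3 controls in 12 of the 30 (15.6% of all probe sets) and all below them in 6 (18.8%). The median difference was 0.05, against -0.01 for all probe sets. No called adaptor probe set was dimmer than the median of all, and brighter probe sets were called more often. In a fit of only the 27306 probe sets above the median level, 4842 were called higher and 5869 lower. Of the 23 adaptor probe sets in that fit, 10 were called higher and 4 lower.

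**Figure D1:**
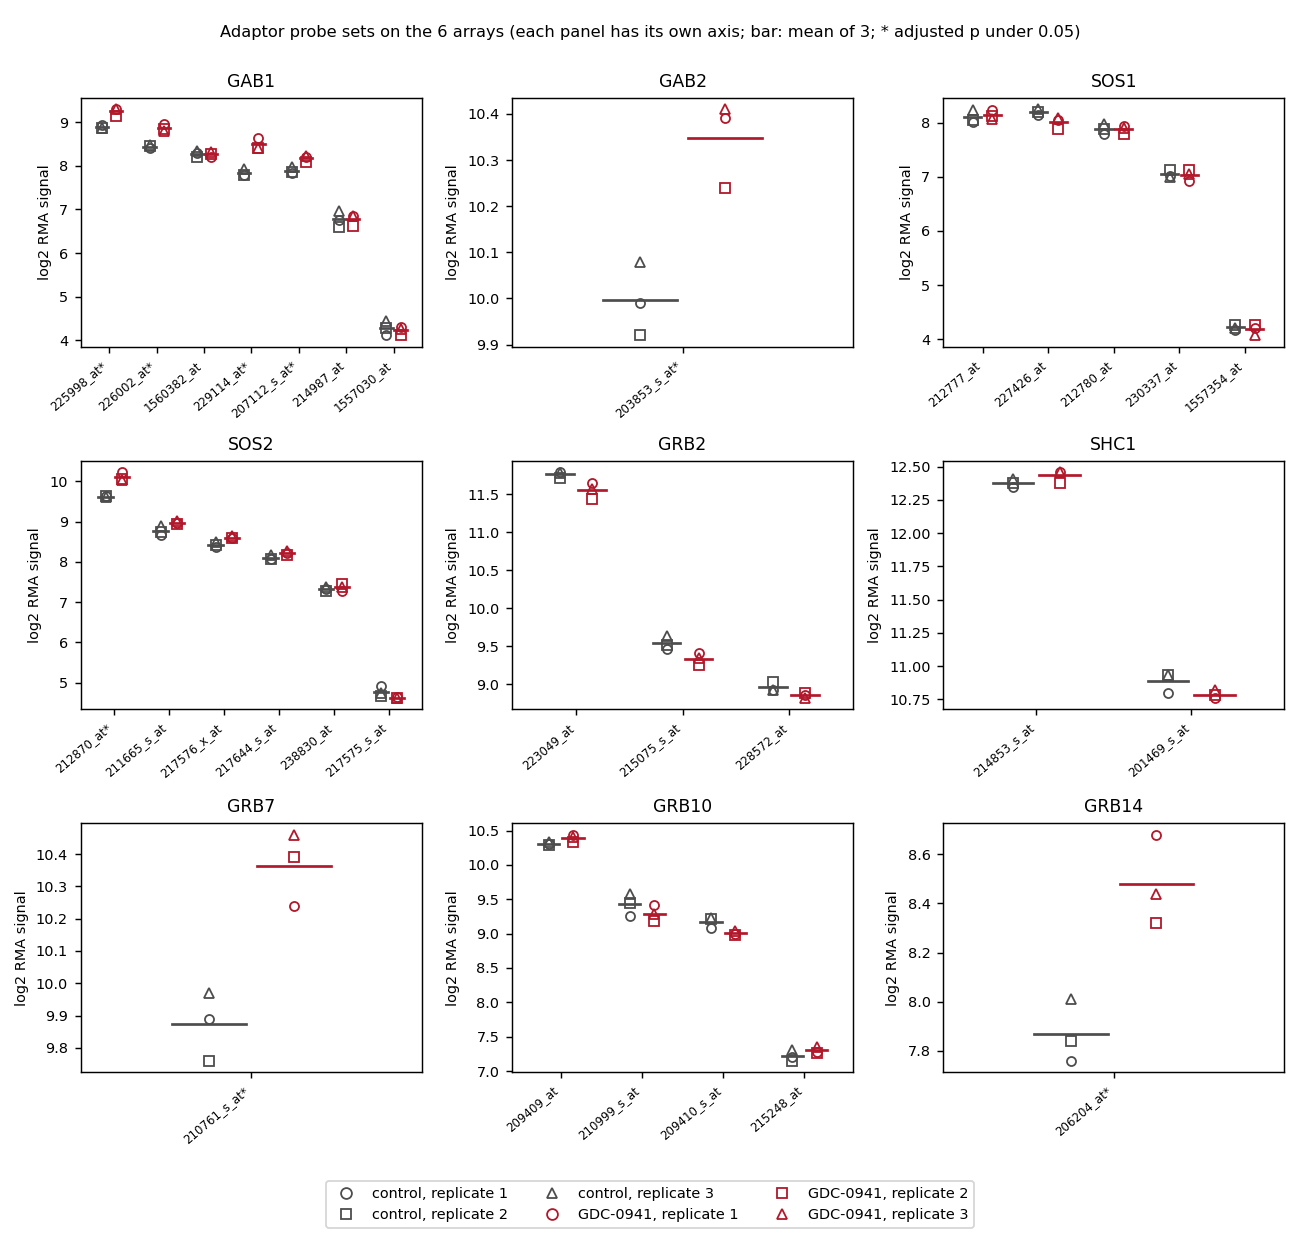
Log2 RMA signal of the 30 adaptor probe sets on each of the 6 arrays, in a panel for each gene with its own axis. Grey symbols are controls, red symbols GDC-0941, bars the mean of 3 arrays, and a star marks an adjusted p under 0.05. In the 8 starred probe sets all red symbols lie above all grey ones, while in the 3 probe sets of GRB2 all lie below.

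Each gene was also represented by its brightest probe set and fitted over the 19775 genes. In that fit 5 adaptors rose (GRB14, GRB7, SOS2, GAB1 and GAB2), GRB2 fell, and GRB10, SHC1 and SOS1 did not pass. Of all genes 12.1% were called higher and 15.6% lower, 27.8% in all. In a fit of only the 9887 genes above the median level, 2290 were called higher and 3108 lower. Of the 7 adaptors in that fit, 4 were called higher and 1 lower. On the brightest probe sets the treated arrays lay all above the controls in 6 adaptors (17.5% of all genes) and all below in 1 (24% of all genes). The members' median log2 difference was 0.35, against -0.02 for all genes, and 0.15 with the mean of all probe sets of each gene. The share of higher calls depends on the reference: it was 43.7% of called genes with the deposited values and 86.4% after centring on the 18 hybridisation control probe sets, which adds 0.17 to every difference. With that centring 6 adaptors were higher, GRB10 being the sixth, and none lower. Directions here are therefore relative to the other transcripts.

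Both docking proteins were called higher at gene level, and GAB1 on 4 of its 7 probe sets. GAB1 had 9.30, 9.15 and 9.30 under GDC-0941 and 8.93, 8.87 and 8.87 in controls on its brightest probe set, 225998_at. All treated arrays lay above all controls, a log2 difference of 0.36 ± 0.06 (SE, n = 3 each), or 1.29-fold, with an adjusted p of 0.00224 in limma over probe sets. Probe set 229114_at gave the largest difference of all 30. It read 8.64, 8.42 and 8.42 against 7.78, 7.80 and 7.94 in controls, a difference of 0.65 ± 0.08 (SE, n = 3 each) or 1.57-fold (limma adjusted p = 0.000177). Probe set 226002_at differed by 0.44 ± 0.06 (SE, limma adjusted p = 0.000668). The fourth, 207112_s_at, differed by 0.28 ± 0.07 (SE, limma adjusted p = 0.015), and it missed the threshold when treated replicate 3 or either of control replicates 1 and 2 was left out (limma adjusted p 0.0574 to 0.0704).

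The other 3 GAB1 probe sets did not follow. Probe set 1560382_at read 8.21, 8.28 and 8.32 under GDC-0941 and 8.29, 8.20 and 8.34 in controls, with overlapping groups and a difference of -0.01 (95% interval -0.149 to 0.131). Probe sets 214987_at and 1557030_at differed by 0.001 and -0.04 (intervals -0.216 to 0.217 and -0.230 to 0.148). Both had mean levels below the median of all probe sets (7.36), at percentiles 36.3 and 4.9, whereas 1560382_at stood at percentile 67.8. The 7 probe sets of GAB1 differed in response from one another (limma's diffSplice, F = 10.54, adjusted p = 4.28e-05 over 10523 genes, of which 17.0% passed). Against the mean of the gene's other probe sets, 229114_at was higher by 0.48 and 1557030_at lower by 0.33 (diffSplice adjusted p = 0.000247 and 0.012, and 0.00347 and 0.0236 in a fit on within-array differences). The stretch of transcript that each probe set reads was not analysed here.

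GAB2, the paralogue, is read by 1 probe set, so no second reading was at hand. Its levels were 10.39, 10.24 and 10.41 under GDC-0941 and 9.99, 9.92 and 10.08 in controls. The groups did not overlap, and the difference of 0.35 ± 0.07 (SE, n = 3 each), or 1.27-fold, passed with an adjusted p of 0.00492 in limma. The responses of GAB1 and GAB2 differed by 0.02 (95% interval -0.134 to 0.165), and the array-wise differences between them overlapped between the groups (exact permutation p = 1, two-sided, n = 3 each). With the mean of all probe sets the difference was -0.107. A high p from 3 arrays a group does not show that they respond alike.

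Of the core adaptors, GRB2 was lower on all 3 of its probe sets by small amounts. The brightest, 223049_at, read 11.64, 11.44 and 11.57 under GDC-0941 against 11.79, 11.71 and 11.78 in controls. All treated arrays lay below all controls, and the difference was -0.21 ± 0.07 (SE, n = 3 each). It missed the threshold over all probe sets (limma adjusted p = 0.0526) and passed over genes (limma adjusted p = 0.0297). At gene level it no longer passed when any of treated replicates 2 and 3 or control replicates 1 and 3 was left out (limma adjusted p 0.0694 to 0.0935), and with hybridisation control centring the difference was -0.04 (adjusted p = 0.743). The other probe sets, 215075_s_at and 228572_at, differed by -0.21 and -0.10 (limma adjusted p = 0.0560 and 0.314), again without overlap between the groups.

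SHC1, which binds phosphorylated receptors and passes the signal to GRB2, did not pass on either probe set. On 214853_s_at it read 12.46, 12.38 and 12.46 under GDC-0941 and 12.35, 12.38 and 12.41 in controls, a difference of 0.05 (95% interval -0.078 to 0.183). On 201469_s_at the values were 10.76, 10.78 and 10.82 against 10.80, 10.93 and 10.93, a difference of -0.10 (95% interval -0.237 to 0.040). The 2 readings had opposite signs with overlapping groups, and they did not differ from each other by the test within genes (diffSplice adjusted p = 0.250).

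Of the RAS exchange factors, SOS2 rose and SOS1 did not pass. SOS2 read 10.23, 10.06 and 10.03 under GDC-0941 on its brightest probe set, 212870_at, and 9.63, 9.63 and 9.60 in controls. All treated arrays lay above all controls, and the difference of 0.49 ± 0.07 (SE, n = 3 each), or 1.40-fold, passed with an adjusted p of 0.000478 in limma. Probe sets 211665_s_at and 217576_x_at differed by 0.21 and 0.18, with no overlap between groups, and narrowly missed the threshold (limma adjusted p = 0.0565 and 0.0577). Probe set 217644_s_at differed by 0.12 without overlap and 238830_at by 0.05 with overlap (limma adjusted p = 0.236 and 0.691). The dimmest, 217575_s_at, at percentile 8.3 of all levels, had its treated arrays below the controls (difference -0.16, limma adjusted p = 0.188).

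The 6 SOS2 probe sets therefore gave different sizes (diffSplice F = 10.99, adjusted p = 0.000111). Probe set 212870_at stood 0.41 above the mean of the others and 217575_s_at 0.37 below it (diffSplice adjusted p = 0.000133 and 0.000512, and 0.0122 and 0.0231 in the fit on within-array differences). With the mean of all probe sets in place of the brightest, the rise of SOS2 was 0.15 (limma adjusted p = 0.0353) and that of GAB1 0.24 (limma adjusted p = 0.0115). 
SOS1 was not called on any of its 5 probe sets. The brightest, 212777_at, read 8.23, 8.12 and 8.07 under GDC-0941 and 8.02, 8.05 and 8.23 in controls, with overlap and a difference of 0.04 (95% interval -0.119 to 0.209). Probe set 227426_at read 8.05, 7.88 and 8.09 against 8.15, 8.20 and 8.25, with all treated arrays lower and a difference of -0.20 ± 0.07 (SE, limma adjusted p = 0.0744). The other 3 differed by -0.03 to -0.01 with overlapping groups. Set against SOS2 within each array, the response of SOS1 was lower by 0.44 (95% interval -0.664 to -0.222), and the arrays of the groups did not overlap. The exact permutation p was 0.10, two-sided, the smallest that 3 against 3 arrays can give, and 0.167 adjusted over the 5 pairs of paralogues compared. With the mean of all probe sets the difference was -0.19.

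**Figure D2:**
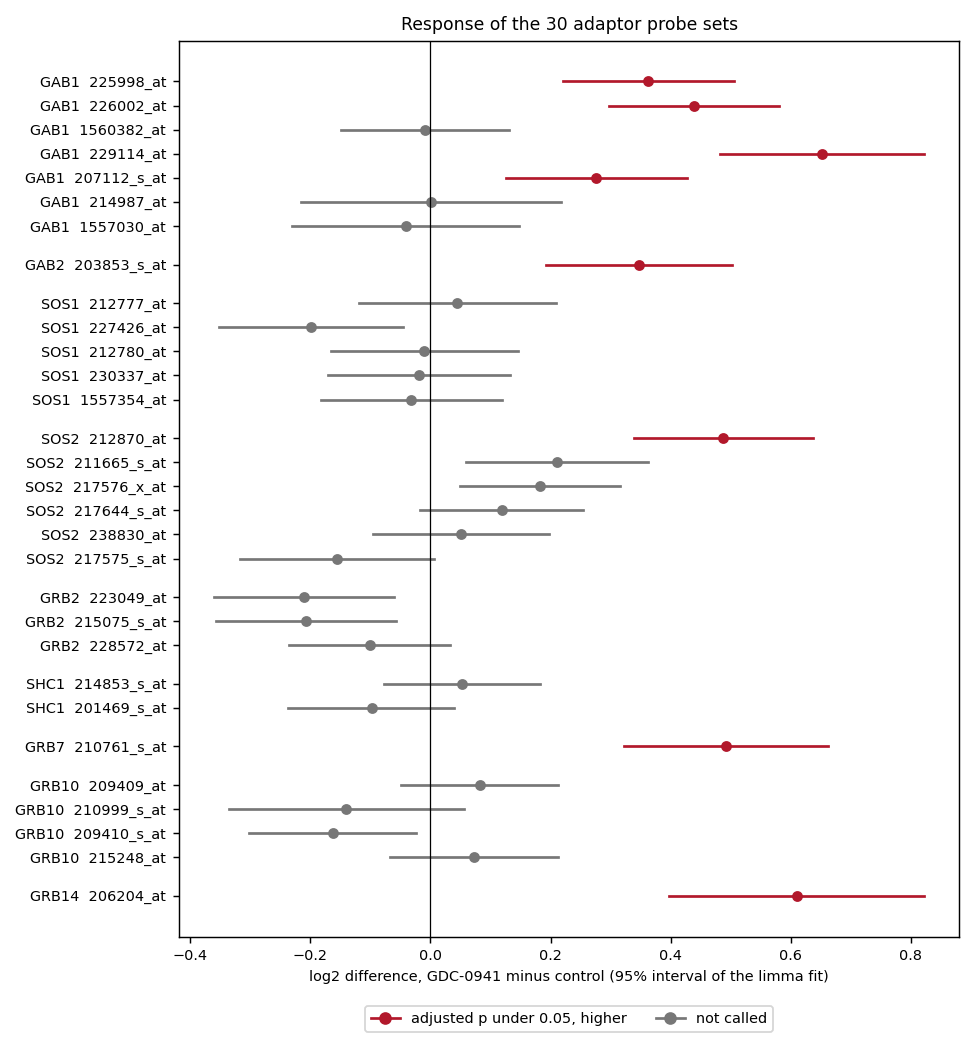
Log2 difference, GDC-0941 minus control, of the 30 adaptor probe sets with the 95% interval of the limma fit, grouped by gene. Red marks the 8 called higher, grey the 22 not called. The points of GAB1 spread from -0.04 to 0.65 and those of SOS2 from -0.16 to 0.49, while those of SOS1 lie between -0.20 and 0.04.

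In the GRB7 family, GRB14 and GRB7 rose and GRB10 did not pass. GRB14 had the largest gene-level difference of the 9 adaptors. It read 8.68, 8.32 and 8.44 under GDC-0941 and 7.76, 7.84 and 8.01 in controls. The groups did not overlap, and treated replicate 1 stood highest. The difference was 0.61 ± 0.10 (SE, n = 3 each), or 1.53-fold (limma adjusted p = 0.00108 over probe sets). Leaving out 1 array at a time gave 0.51 to 0.69, and the call was kept each time.

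GRB7, whose gene lies close to ERBB2, read 10.24, 10.39 and 10.46 under GDC-0941 and 9.89, 9.76 and 9.97 in controls. Here treated replicate 1 was the lowest of its group and still above every control. The difference was 0.49 ± 0.08 (SE, n = 3 each), or 1.41-fold (limma adjusted p = 0.00104 over probe sets). ERBB2, named here for its position, rose by 0.30 ± 0.07 (SE, limma adjusted p = 0.00462 over genes) and by 0.19 with the mean of its probe sets, while MIEN1, the gene next to GRB7 on the side of ERBB2, differed by -0.17 (limma adjusted p = 0.0658) and IKZF3, next on the other side, by -0.13 (limma adjusted p = 0.112). Over all 9 adaptors, none of the 18 nearest measured protein-coding neighbours was called higher in limma and 3 were called lower, against 12.1% and 15.6% of all genes. Of those 3, MIF4GD and CASKIN2 lie on either side of GRB2 (log2 differences -0.26 and -0.27) and COBL beside GRB10 (-0.27). They were named after their values were seen, and a change shared by neighbouring genes was not tested.

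GRB10 gave readings of both signs. Its brightest probe set, 209409_at, read 10.44, 10.34 and 10.40 under GDC-0941 and 10.31, 10.29 and 10.33 in controls. The groups did not overlap, but the difference of 0.08 (95% interval -0.049 to 0.212) did not pass (limma adjusted p = 0.421). Probe set 209410_s_at read 8.98 to 9.04 against 9.08 to 9.23, all treated arrays lower, a difference of -0.16 ± 0.06 (SE, limma adjusted p = 0.106). The remaining pair, 210999_s_at and 215248_at, differed by -0.14 and 0.07 with overlap. The 4 probe sets did not differ from each other by the test within genes (diffSplice adjusted p = 0.117).

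Within each array, the response of GRB10 was lower than that of GRB14 by 0.53 (95% interval -0.816 to -0.241), and that of GRB7 exceeded that of GRB10 by 0.41 (95% interval 0.134 to 0.688). Both had an exact permutation p of 0.10, the smallest possible, and 0.167 over the 5 pairs. GRB7 and GRB14 differed by -0.12 (95% interval -0.607 to 0.372, exact permutation p = 0.80), an interval too wide to show that they respond alike.

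**Figure D3:**
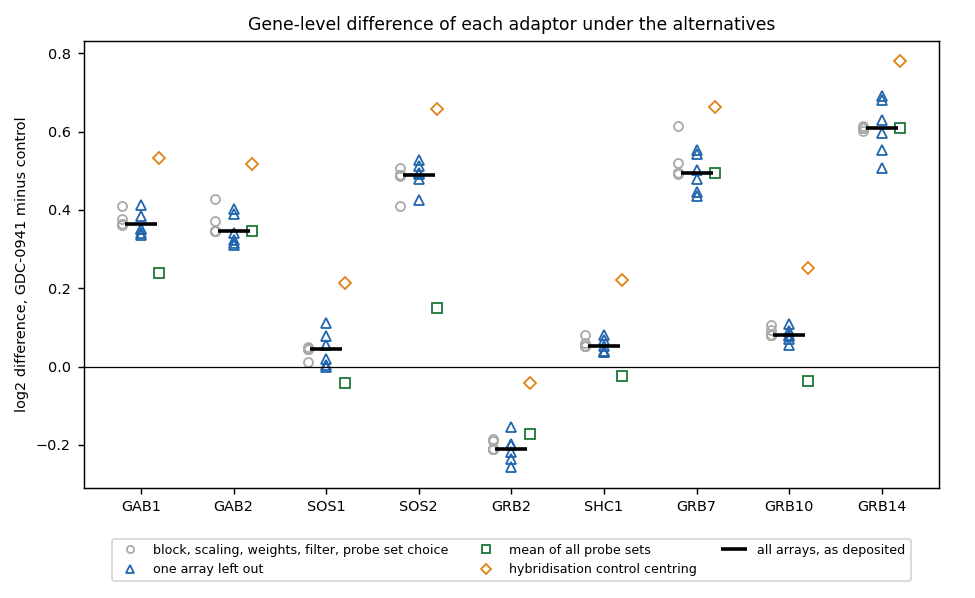
Log2 difference of each adaptor at gene level with all arrays as deposited (black bar), with 1 array left out (blue), with the mean of all probe sets of the gene (green), with hybridisation control centring (orange) and under the other alternatives (grey). GRB14, GRB7, SOS2, GAB1 and GAB2 stay above 0 throughout, SOS2 drops to 0.15 with the mean of its probe sets, and GRB2 stays below 0.

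The genes with the smallest Euclidean distance between profiles centred on their mean over the 6 arrays were named for the adaptor with the largest rise and for the one with the largest fall. For GRB14 these were FAM107B, CLDN8, TBC1D9, KLHL28 and HNRNPA1, at distances of 0.072 to 0.131 and with log2 differences of 0.55 to 0.65. For GRB2 they were SKA1, SLC61A1, MED13, RCN1 and CHEK2, at distances of 0.033 to 0.036 and with log2 differences of -0.23 to -0.19. These distances are descriptions over 6 arrays.

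The sequences before the starts of the risen adaptors are shown because these genes were called higher and because forkhead letters are bound by FOXO proteins, which AKT excludes from the nucleus. RefSeq (GRCh38.p14) gave windows for 7 of the 9 adaptors, 15 in all, and none was taken for GAB1 and GRB7. Each window holds the 250 bases before a start and runs 5′ to 3′ on the gene's strand, which is the minus strand for all those shown. The single SOS2 window lies inside the annotated gene (chr14:50117130-50231882), so its start is not the gene's outermost end. Capitals mark GTAAACA or ATAAACA on either strand.
GRB14 start 1, chr2:164621483-164621732: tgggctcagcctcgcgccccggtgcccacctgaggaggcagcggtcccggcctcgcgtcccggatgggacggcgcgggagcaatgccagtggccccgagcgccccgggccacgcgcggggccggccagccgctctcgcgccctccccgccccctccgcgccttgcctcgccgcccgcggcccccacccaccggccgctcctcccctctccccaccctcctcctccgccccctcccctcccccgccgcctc
GRB14 start 2, chr2:164568496-164568745: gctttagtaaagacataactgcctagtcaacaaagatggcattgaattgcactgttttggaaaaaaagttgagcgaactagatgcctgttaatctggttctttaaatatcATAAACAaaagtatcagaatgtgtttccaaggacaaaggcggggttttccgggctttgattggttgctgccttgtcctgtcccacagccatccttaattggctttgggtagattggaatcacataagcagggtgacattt
GAB2 start 1, chr11:78417821-78418070: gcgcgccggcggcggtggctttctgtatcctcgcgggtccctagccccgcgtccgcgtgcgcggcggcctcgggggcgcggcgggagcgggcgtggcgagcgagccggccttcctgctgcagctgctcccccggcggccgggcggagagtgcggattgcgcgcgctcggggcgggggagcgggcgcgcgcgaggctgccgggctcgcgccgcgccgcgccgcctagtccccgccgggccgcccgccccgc
GAB2 start 2, chr11:78341920-78342169: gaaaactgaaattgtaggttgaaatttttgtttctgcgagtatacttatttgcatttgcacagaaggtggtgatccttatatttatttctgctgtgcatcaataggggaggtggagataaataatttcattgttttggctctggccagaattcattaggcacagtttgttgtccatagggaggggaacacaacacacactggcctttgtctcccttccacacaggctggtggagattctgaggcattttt
SOS2 start 1, chr14:50231579-50231828: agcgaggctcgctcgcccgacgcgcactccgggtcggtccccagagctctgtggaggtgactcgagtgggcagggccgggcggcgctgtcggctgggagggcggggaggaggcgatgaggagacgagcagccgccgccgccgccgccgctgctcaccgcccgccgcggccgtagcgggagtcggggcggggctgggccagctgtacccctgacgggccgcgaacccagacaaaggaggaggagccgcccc

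GTAAACA occurred on either strand in 2.98% of all 35116 windows of this length in the table, and in none of the 15 adaptor windows. ATAAACA occurred in 3.77% of all windows and in 1 adaptor window, the inner start of GRB14. The motifs differ in their first letter, so no match counts for both. The outer starts of GAB2 and GRB14 and the listed start of SOS2 were rich in G and C (84.0%, 82.0% and 76.8%). These shares lay above the upper quartile of all windows (68.0%). The inner starts of GAB2 and GRB14 had 41.2% and 40.8%, below the lower quartile (46.4%). Of the adaptors that did not rise, GRB2 had 71.6%, SOS1 52.4% and 67.2%, SHC1 55.2% and 61.6%, and the 5 starts of GRB10 30.4% to 81.6%. A match describes letters only, and which start T47D cells use was not measured.

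The genes around the adaptors were counted by role at gene level, beside 12.1% called higher and 15.6% called lower over all genes. The lists do not hold every gene of a role. Of 12 receptors, 5 rose and 2 fell, with a median log2 difference of -0.06. ERBB3, which signals through PI3 kinase, rose by 0.97 ± 0.06 (SE), ERBB4 by 0.47 ± 0.07 (SE), and the fibroblast growth factor receptor FGFR3 fell by 0.85 ± 0.06 (SE; limma adjusted p = 1.33e-06, 0.000222 and 1.45e-06). With the mean of all probe sets of a gene, ERBB3 rose by 0.55 and ERBB4 by 0.26 (limma adjusted p = 3.51e-05 and 0.00667). Other receptor calls, named after their values were seen, were less stable. The rise of INSR (0.21) lost its call under 7 of its 15 alternatives, and that of IGF1R (0.24) at an adjusted p under 0.01. The fall of FGFR4 (-0.31) lost its call with hybridisation control centring (-0.14, limma adjusted p = 0.232). Of 8 ligands, EGF and TGFA rose by 0.49 and 0.17 and HBEGF fell by 0.25 (limma adjusted p = 0.000511, 0.0400 and 0.00573). The call of TGFA was lost under 9 of its 16 alternatives. That of HBEGF was lost with hybridisation control centring (-0.08, limma adjusted p = 0.484) and with the mean of all probe sets (-0.14, limma adjusted p = 0.0548).

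Of 17 other adaptors and docking proteins, 5 rose and 1 fell, with a median of 0.01. IRS2, the docking protein of the insulin and IGF receptors, rose by 1.86 ± 0.07 (SE), more than any of the 9 adaptors. The ubiquitin ligase CBLB rose by 0.58 ± 0.11 and IRS1 by 0.47 ± 0.06 (SE; limma adjusted p = 2.37e-08, 0.00185 and 0.000166). With the mean of all probe sets CBLB rose by 0.35 and IRS1 by 0.305 (limma adjusted p = 0.00364 and 0.00130). CBLC, another ligase of that family, chosen after its value was seen, was the 1 that fell (-0.39, limma adjusted p = 0.00302), and its call was lost with hybridisation control centring, and when probe sets without an s or x in their ending were preferred. None of the 4 PI3 kinase subunits counted, PIK3R1, PIK3R3, PIK3CB and PIK3CD, passed (log2 differences between -0.03 and 0.065 in limma, none with an unadjusted p under 0.05). PIK3CA and PIK3R2 were not among those counted.

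Downstream of the SOS proteins the calls went mostly the other way. Of 10 genes from RAS to ERK, 5 fell and 1 rose, with a median of -0.19. HRAS fell by 0.42 ± 0.06, the ERK kinase MAP2K2 by 0.41 ± 0.06 and MAP2K1 by 0.34 ± 0.06 (SE; limma adjusted p = 0.000176, 0.000377 and 0.00151). SHOC2, a scaffold that helps to activate RAF, chosen after its value was seen, rose by 0.20 (limma adjusted p = 0.0327), a call lost under 6 of its 16 alternatives. With hybridisation control centring 2 of the 5 were called lower, HRAS (-0.25) and MAP2K2 (-0.24). With the mean of all probe sets MAP2K2 was at -0.27. Of 8 other RAS exchange factors and GTPase activators, NF1, which switches RAS off, rose by 0.32 and RASGRP1 fell by 0.20 (limma adjusted p = 0.00679 and 0.0161). The call of RASGRP1 was lost under 6 of its 15 alternatives: without treated replicate 3, control replicate 1 or control replicate 2, with a variance trend and robust estimation, at an adjusted p under 0.01, and with hybridisation control centring (-0.04, limma adjusted p = 0.780). Over the 6 lists together 14 of 59 genes rose and 10 fell.

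**Figure D4:**
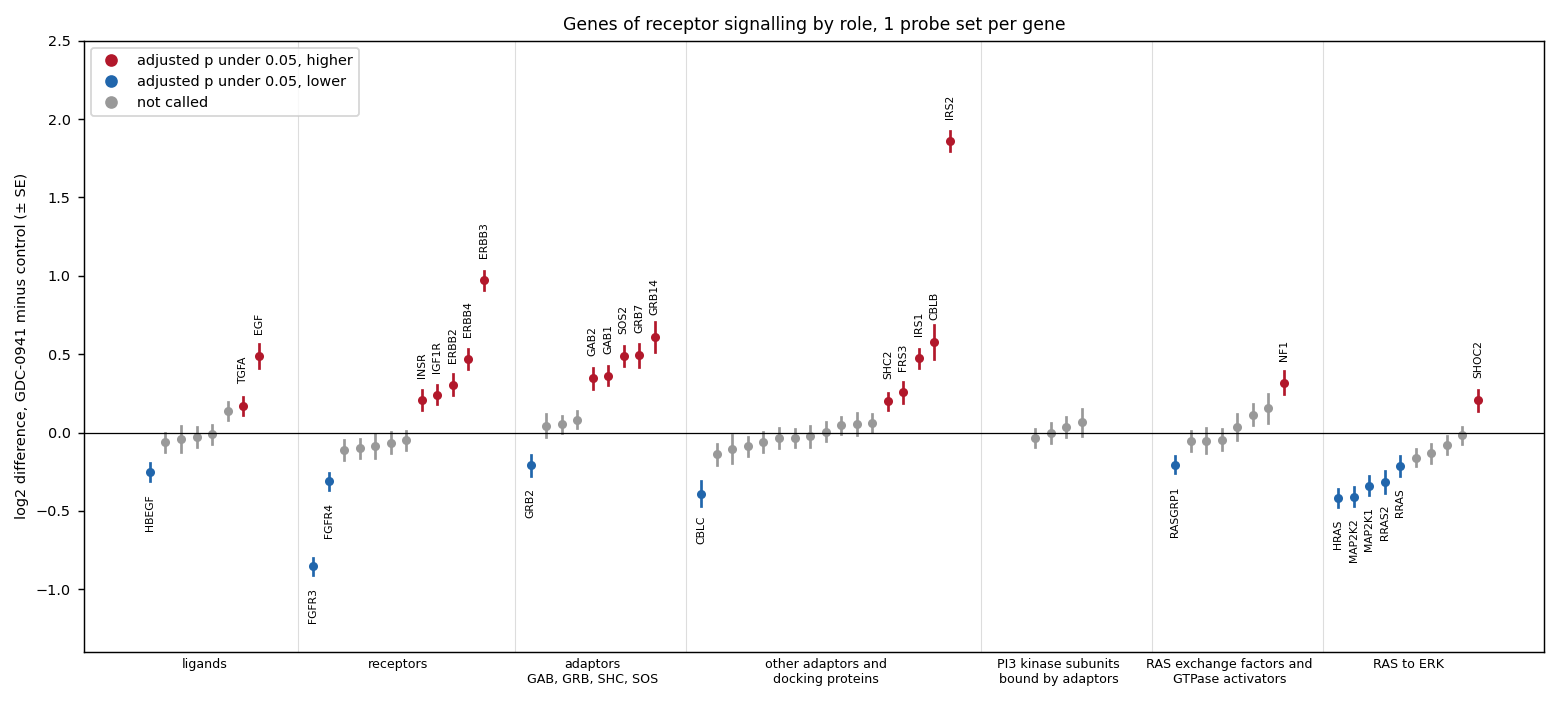
Log2 difference ± SE (limma, n = 3 arrays a group) of genes of receptor signalling by role, 1 probe set per gene, with called genes named. Red is higher, blue lower and grey not called. On these probe sets IRS2 (1.86) and ERBB3 (0.97) lie above all 9 adaptors, of which 5 are red and GRB2 is blue, but with the mean of all probe sets ERBB3 was at 0.55, below GRB14 at 0.61, and 5 of 10 genes from RAS to ERK lie below 0 as called.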

How the data were processed

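Total RNA of 6 T47D samples was labelled from 6 ug by the array manufacturer's protocol, per the labels. The authors deposited log2 values, 1 column per array, for 54675 probe sets, 62 of them controls. RMA is the tool named in the submitters' processing notes, with its version and chip definition not stated there. Values of 3.00 to 14.81 fit a log2 scale. RMA makes values relative to the other arrays. Of 54613 probe sets, 41091 name 1 gene, 1801 several and 11721 none. Symbols were updated through the RefSeq table of GRCh38.p14.

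The main test was limma's (version 3.58.1, R 4.3.3; lmFit and eBayes, two-sided) on unfiltered values, with Benjamini-Hochberg adjustment over all probe sets or, with the brightest probe set per gene, over all 19775 genes. Probe sets of a gene were compared with diffSplice, which pools their variance within a gene and can give p-values that are too small. A fit on within-array differences was added after seeing the data. Paralogues were compared by exact permutation. Named were all 9 adaptors, up to 3 called genes of each list with the largest change, and the 5 genes most like the adaptors with the largest rise and fall. Members, lists and tests were chosen with earlier results of these data known. Precision is limited by 3 arrays a group. Figures were drawn with matplotlib 3.10.9.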

Additional observations from a re-analysis of the deposited data

How the results depend on the processing

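The counts of adaptors called higher stayed between 7 and 11 of 30 probe sets and between 4 and 6 genes under the alternatives run. The lowest gene count came from keeping genes above the median level, which left 7 adaptors to test. Calls of lower adaptors were less stable. No adaptor probe set was lower in the fit as reported in limma, but 2 were after quantile normalization again, 2 with a variance trend and robust estimation, 3 with array weights and 4 above the median level, and 0 to 2 when 1 array was left out. At gene level the 1 lower adaptor, GRB2, became 0 with hybridisation control centring, 0 at an adjusted p under 0.01, and 0 to 1 when 1 array was left out. Pathway genes called lower, 10 as reported, were 3 with hybridisation control centring and 19 with array weights. Those called higher, 14 as reported, were 8 at an adjusted p under 0.01. The cause was not tested, apart from the constant 0.17 that the centring adds. The 18 hybridisation controls themselves differed by -0.277 to -0.029.

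The replicate numbers did not pair the arrays: same-numbered deviations correlated at -0.344, 0.139 and -0.027. The replicate block left 8 adaptor probe sets and 5 adaptor genes called higher and 1 gene lower, and lowered the count of pathway genes called higher from 14 to 11, TGFA, INSR and SHOC2 being the calls lost. Within-array differences gave the same 2 genes, GAB1 and SOS2, whose probe sets differed, but not 214987_at of GAB1 (adjusted p = 0.0679 against 0.0357). In that fit 10% of all 31839 probe sets tested passed. It used the same arrays and is no independent reading.

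Signs turned only for values that were not called. With hybridisation control centring these were GAB1 1560382_at (0.16) and 1557030_at (0.129), GRB10 210999_s_at (0.0296) and 209410_s_at (0.00636), GRB2 228572_at (0.0684), SHC1 201469_s_at (0.0711), SOS1 212780_at (0.16), 230337_at (0.151) and 1557354_at (0.138), and SOS2 217575_s_at (0.0141). Array weights turned GAB1 1560382_at (0.0521) and SOS1 212780_at (0.0194), and quantile normalization again GAB1 214987_at (-0.000103). The mean of all probe sets turned GRB10 (-0.0372), SHC1 (-0.0229), SOS1 (-0.043) and GAB1 minus GAB2 (-0.107). Leaving out 1 array gave ranges of -0.0474 to 0.0212 for GAB1 1560382_at, -0.0852 to 0.101 for 214987_at and -0.124 to 0.0405 for 1557030_at. For SOS1 they were -0.000488 to 0.112 for 212777_at and at gene level, -0.0617 to 0.0349 for 230337_at, -0.0593 to 0.0392 for 212780_at and -0.0756 to 0.0247 for 1557354_at. Between paralogues they were -0.212 to 0.046 for GRB7 minus GRB14 and -0.038 to 0.042 for GAB1 minus GAB2.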
